A study of Mus musculus with 5 samples.

Results

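The Polycomb genes described here were Ezh1, Ezh2, Eed, Suz12, Jarid2, Bmi1, Ring1, Rnf2, Cbx2 and Cbx7, which are 10 of the 22380 protein-coding genes of the annotation (GENCODE vM1, mouse build mm9). They were taken by name, as subunits of the Polycomb repressive complexes, and each was described by the H3K9ac peaks whose centre lay within 10 kb of any of its transcript starts. Under that rule the genes took 47 of the 34286 peaks of the DOP list and 45 of the 33355 peaks of the vehicle list. H3K9ac, acetylation of lysine 9 on histone H3, is a mark found around the starts of active genes.

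The cells were STHdh Q111 cells, a striatal progenitor line from C57BL/6 mice whose 2 huntingtin alleles both carry the expanded repeat of Huntington's disease (STHdhQ111/Q111), and the same mutant alleles were present in every sample. All cultures were kept without serum for 24 h. Q111_DOP cells (2 samples) received 4 mM 4-deoxypyridoxine hydrochloride (DOP), an inhibitor of sphingosine-1-phosphate lyase, and Q111_SST cells (2 samples) received the vehicle, DPBS. The comparison asked where H3K9ac lay after the lyase was inhibited. Each condition was represented by 1 peak list, so no value below has an error between replicates, no difference between conditions was tested, and the sequencing depth behind the peaks is unknown. A single immortalised line also limits what the samples stand for, and 1 IgG control sample was not analysed here. In the marker check, a peak lay within 1 kb of a start in both lists for 4 of 4 mesenchymal genes (Col1a1, Col1a2, Twist1, Prrx1), 4 of 10 ventral forebrain and striatal genes and 1 of 4 neural progenitor genes. That single progenitor gene was Vim, whereas Nes, Sox2 and Pax6 had no peak within 10 kb in either list, and none of the neuronal, astrocyte, microglial and endothelial markers found in the annotation had one within 1 kb. Of all protein-coding genes, 51.4% had a peak within 1 kb of a start in the DOP list and 50.8% in the vehicle list.

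Polycomb proteins keep developmental genes silent through 2 families of complexes. Polycomb repressive complex 2 (PRC2) methylates lysine 27 of histone H3 through Ezh1 or Ezh2, held together by Eed and Suz12, and Jarid2 helps to recruit it. PRC1 attaches ubiquitin to histone H2A through the RING proteins Ring1 and Rnf2, joined by partners such as Bmi1, and Cbx proteins read the methylated lysine. The genes that encode these repressors are themselves broadly transcribed, and Bmi1 and Ezh2 are known for keeping progenitor cells dividing in the brain. Acetylation of their own starts is what is described here, not the chromatin to which their products bind.

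The stretches below show what lay under the peaks. The first 3 are the highest ranked peaks of Suz12, Ezh2 and Ezh1 in the DOP list, each found in both lists. The other 3 are peaks found in 1 list only. Each is the whole 200-base peak in mm9, read 5′ to 3′ along the strand of the gene, and capitals mark every CpG dinucleotide.
Suz12, both lists, chr11:79806857-79807056, plus strand: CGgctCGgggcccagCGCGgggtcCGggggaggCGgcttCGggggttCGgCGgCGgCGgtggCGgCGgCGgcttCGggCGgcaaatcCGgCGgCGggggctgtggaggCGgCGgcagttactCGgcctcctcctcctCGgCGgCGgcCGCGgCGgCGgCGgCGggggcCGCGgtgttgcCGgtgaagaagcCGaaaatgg
Ezh2, both lists, chr6:47544647-47544846, minus strand: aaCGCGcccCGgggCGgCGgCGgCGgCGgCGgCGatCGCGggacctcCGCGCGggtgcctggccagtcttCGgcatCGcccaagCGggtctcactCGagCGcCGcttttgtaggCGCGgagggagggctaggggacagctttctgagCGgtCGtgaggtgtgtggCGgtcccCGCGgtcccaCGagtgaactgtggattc
Ezh1, both lists, chr11:101087368-101087567, minus strand: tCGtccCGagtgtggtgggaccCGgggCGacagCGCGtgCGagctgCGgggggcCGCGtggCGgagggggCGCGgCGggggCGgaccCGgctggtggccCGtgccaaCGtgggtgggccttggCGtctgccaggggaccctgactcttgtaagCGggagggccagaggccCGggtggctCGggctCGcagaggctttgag
Eed, Q111_SST only, chr7:97128429-97128628, minus strand: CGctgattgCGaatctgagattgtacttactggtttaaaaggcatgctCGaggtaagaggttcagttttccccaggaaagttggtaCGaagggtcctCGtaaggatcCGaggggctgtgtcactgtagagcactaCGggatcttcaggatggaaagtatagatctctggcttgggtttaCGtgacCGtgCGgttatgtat
Cbx2, Q111_DOP only, chr11:118885425-118885624, plus strand: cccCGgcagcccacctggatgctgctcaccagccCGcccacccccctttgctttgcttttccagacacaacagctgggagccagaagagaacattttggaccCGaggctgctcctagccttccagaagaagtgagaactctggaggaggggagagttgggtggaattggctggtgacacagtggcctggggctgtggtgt
Jarid2, Q111_DOP only, chr13:44829508-44829707, plus strand: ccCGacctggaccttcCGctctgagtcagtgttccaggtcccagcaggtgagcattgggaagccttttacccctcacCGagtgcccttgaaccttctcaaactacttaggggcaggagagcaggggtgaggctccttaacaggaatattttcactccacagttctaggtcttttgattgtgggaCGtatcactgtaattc

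The shared peaks held 35 CpGs in Suz12, 29 in Ezh2 and 23 in Ezh1. The one-list peaks held 10 in Eed, 3 in Cbx2 and 4 in Jarid2. The centres of the Suz12 and Cbx2 peaks lay in coding exons, and those of the other 4 lay in introns.

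All 10 Polycomb genes had an H3K9ac peak within 10 kb in both lists, where 57.7% of all protein-coding genes had one in the DOP list and 56.9% in the vehicle list. They also all had a peak within 1 kb of a start in both lists, against 51.4% and 50.8% of all genes. The number of peaks per gene ran from 2 to 10 in each list with a median of 3.5, beside a median of 3 over the genes that had any peak. Bmi1 and Ring1 had the most, and Eed and Cbx2 the fewest.

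**Figure D1:**
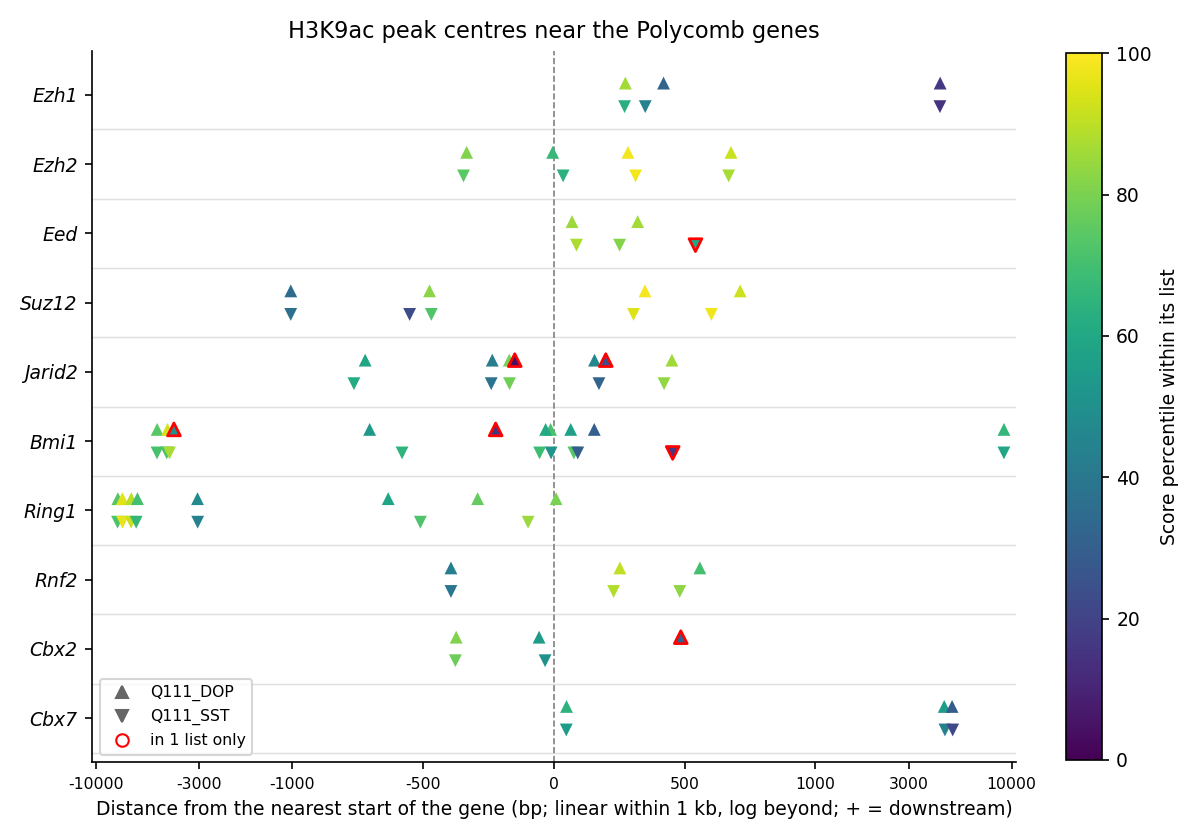
H3K9ac peak centres of the Q111_DOP list (upward triangles) and the Q111_SST list (downward triangles) by distance from the nearest start of each Polycomb gene, in bp, on an axis that is linear within 1 kb and logarithmic beyond it. Colour gives the score percentile of the peak within its own list and a red outline marks a peak found in 1 list only, so that most genes show 1 group of peaks at the start and Bmi1 and Ring1 a second group 3 to 8 kb upstream.

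The score that the authors gave each peak has no stated definition, so it was used only as a percentile, the share of peaks in the same list with a score no higher. By this measure Suz12 and Ezh2 stood at the top of the group and Cbx7 at the bottom. Counting only peaks that lay nearer to a start of the Polycomb gene than to that of another protein-coding gene, the highest peak per gene had a median percentile of 85.9 in the DOP list and 84.2 in the vehicle list. With all peaks within 10 kb counted, these medians were 88.3 and 87.3, beside 78.4 and 77.3 over all genes with a peak. Over all peaks near the Polycomb genes the median percentile was 67.1 with DOP and 69.0 with vehicle, beside 55.2 and 55.1 over all peaks within 10 kb of a protein-coding start. In the DOP list 34 of the 47 peaks (72.3%) and in the vehicle list 33 of the 45 (73.3%) were in the upper 50% of their list, against 55.7% and 55.5% of all peaks near genes. Without the 9 peaks per list that were nearest to another gene, the median percentiles were 62.2 with DOP and 64.3 with vehicle. The shares in the upper 50% were then 68.4% and 69.4%.

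Ezh2 encodes the main methyltransferase of PRC2 in dividing cells. The gene (chr6:47480273-47545340, minus strand) had 4 peaks in each list, and all 4 were found in both. The highest lay in an intron 283 bp downstream of the main start (that of the first-numbered transcript) in the DOP list and 312 bp downstream in the vehicle list. It reached the 98.3 percentile with DOP and the 98.4 percentile with vehicle, or rank 584 and rank 548. The peak at 677 bp stood at 92.0 with DOP and 86.9 with vehicle, the one upstream at -645 bp at 80.9 and 74.3, and the one at -316 bp at 67.1 and 63.7. Thus the top peak of Ezh2 differed by -0.06 points between the lists (DOP minus vehicle), while the 3 weaker peaks each ranked 3.4 to 6.5 points higher with DOP.

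Ezh1, the second methyltransferase, is the form retained in cells that no longer divide. Its gene (chr11:101052429-101087777, minus strand) had 3 peaks in each list. The peak in the first part of the gene, 310 bp past the start, stood at the 86.1 percentile with DOP and at 63.3 with vehicle. The difference of 22.8 points was the widest among the Polycomb genes, although the peak centres of the 2 lists lay only 3 bp apart. Of 22837 paired peaks near any gene, 1366 were higher with DOP by at least 20 points. Its neighbour, at 456 bp with DOP and 386 bp with vehicle, went the other way, from 44.1 with vehicle to 32.2 with DOP. The third Ezh1 peak, at percentiles 16.3 and 15.2, lay in a UTR of the adjoining gene Cntnap1, 36363 bp from the main Ezh1 start, and was within 10 kb only of a start inside the gene.

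Suz12, a scaffold subunit that PRC2 needs for activity, carried the highest peak of the group in the DOP list, and was second to Ezh2 in the vehicle list. The gene (chr11:79806608-79847625, plus strand) had 4 peaks with DOP and 5 with vehicle. The peak at 348 bp ranked 444 of the DOP list (percentile 98.7) and stood at 94.8 with vehicle. In the vehicle list the top Suz12 peak was instead the next one downstream, at 602 bp, with a percentile of 97.8 against 92.4 for its DOP partner at 712 bp. The extra vehicle peak, at -552 bp and percentile 23.1, overlapped the same DOP peak at -476 bp as its neighbour did, so no Suz12 peak was in 1 list only. A weaker pair 1460 bp into the gene (percentiles 34.7 and 37.1) had a GC content of 26% and 25.5%, the lowest near any Polycomb gene.

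Eed, the subunit that binds the methylated histone tail, had 2 peaks with DOP and 3 with vehicle (chr7:97103166-97129493, minus strand). The pair on a UTR at the start, 69 bp past the start with DOP and 86 bp with vehicle, stood at 85.1 and 87.8. The intronic pair stood at 86.1 with DOP and 81.3 with vehicle. The third peak, found with vehicle only, lay 965 bp past the start at the 59.5 percentile, and its centre was 221 bp from the nearest DOP peak. Peaks were 200 bp long, so that distance is just beyond an overlap.

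Jarid2, a DNA-binding cofactor of PRC2, had 7 peaks with DOP and 5 with vehicle, spread over a gene of 192170 bp with 17 annotated starts (chr13:44824843-45017012, plus strand). The highest stood at 85.7 with DOP and 83.3 with vehicle, at -1025 and -1055 bp from the main start, in an intron downstream of an earlier one. The 5 vehicle peaks all had a partner in the DOP list, and 4 of these pairs differed by under 5 points. The exception, at -1321 bp in the DOP list, stood at 46.4 with DOP and 32.0 with vehicle. The 2 remaining DOP peaks were in that list only, and both were weak. The first, 2967 bp past the main start, was at the 23.0 percentile and 438 bp from the nearest vehicle peak. The second was at the 3.94 percentile, at an internal start, with no vehicle peak within 1 kb. No other peak near a Polycomb gene was more than 1 kb from its nearest counterpart.

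Rnf2 and Ring1 encode the RING proteins that ubiquitylate histone H2A, Rnf2 (also called Ring1B) being the main one in many cells. Rnf2 (chr1:153316536-153347953, minus strand) has 1 annotated transcript and had 3 peaks in each list, all shared. Its highest stood at 90.4 with DOP and 88.4 with vehicle, in an intron at 252 and 228 bp. The next one downstream stood at 70.2 with DOP and 82.9 with vehicle, and the upstream peak at -394 bp had the same centre in both lists and percentiles of 42.2 and 39.1.

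Ring1 (chr17:34157737-34161625, minus strand) had 8 peaks with DOP and 7 with vehicle, but 5 in each list were nearest to the starts of Rxrb, Slc39a7 and H2-Ke6, which lie upstream of it. The highest peak in the Ring1 window, at 95.1 with DOP and 96.2 with vehicle, belonged by distance to Rxrb. At the Ring1 start itself the DOP list had peaks at 36, -292 and -634 bp, with percentiles of 79.3, 76.3 and 58.5. The vehicle list had 2 there, at -99 bp (85.1) and -511 bp (72.2). The vehicle peak at -99 bp overlapped both DOP peaks on either side of it, so the higher DOP count at Ring1 came with no peak in that list only.

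Bmi1 encodes the PRC1 partner of the RING proteins best known from neural stem cells, where it holds down the Cdkn2a locus. The gene (chr2:18598645-18608256, plus strand) had 10 peaks in each list, more than 99.2% of all genes with DOP and 99.3% with vehicle had. Only 6 in each list were nearest to a Bmi1 start, 3 lay at Commd3, 4 to 5 kb upstream, and 1 beyond the end of Bmi1 was nearest to Gm13334. The highest Bmi1 peak was on the 5′ part of the gene, at 249 bp with DOP (71.2) and at 338 bp with vehicle (73.8). The vehicle partner of the first, at 251 bp, stood at 51.5, and the DOP partner of the second, at 326 bp, stood at 57.1. The order of these 2 adjoining peaks was therefore opposite in the 2 lists, by 19.7 points one way and 16.6 the other. At Commd3 the pair at -4337 bp stood at 93.3 with DOP and 71.8 with vehicle, a difference of 21.4 points, while a second vehicle peak at -4238 bp stood at 86.8 and overlapped the same DOP peak. The one-list peaks were a DOP peak at Commd3 (-4022 bp, percentile 50.3, 216 bp from a vehicle peak), a DOP peak at 3753 bp (15.3, 427 bp away) and a vehicle peak at 1243 bp (16.3, 486 bp away).

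Cbx2 and Cbx7 encode chromodomain readers that occur as alternatives within PRC1. Cbx2 (chr11:118884276-118892584, plus strand) had 3 peaks with DOP and 2 with vehicle. The pair 389 bp past the start stood at 81.1 with DOP and 77.7 with vehicle, and the second pair at 54.8 and 50.3. The third peak, centred on a coding exon 1248 bp past the start, was in the DOP list only, at the 29.8 percentile and 519 bp from a vehicle peak. Cbx7 (chr15:79746237-79801549, minus strand) had 3 peaks in each list, 1 at the main start and 2 in the intron about 5 kb further on, and none at its starts far upstream. Its peaks had the lowest top percentile of the 10 genes, 64.1 with DOP and 55.1 with vehicle. All 3 Cbx7 pairs ranked higher with DOP, by 9.03, 12.0 and 7.12 points.

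**Figure D2:**
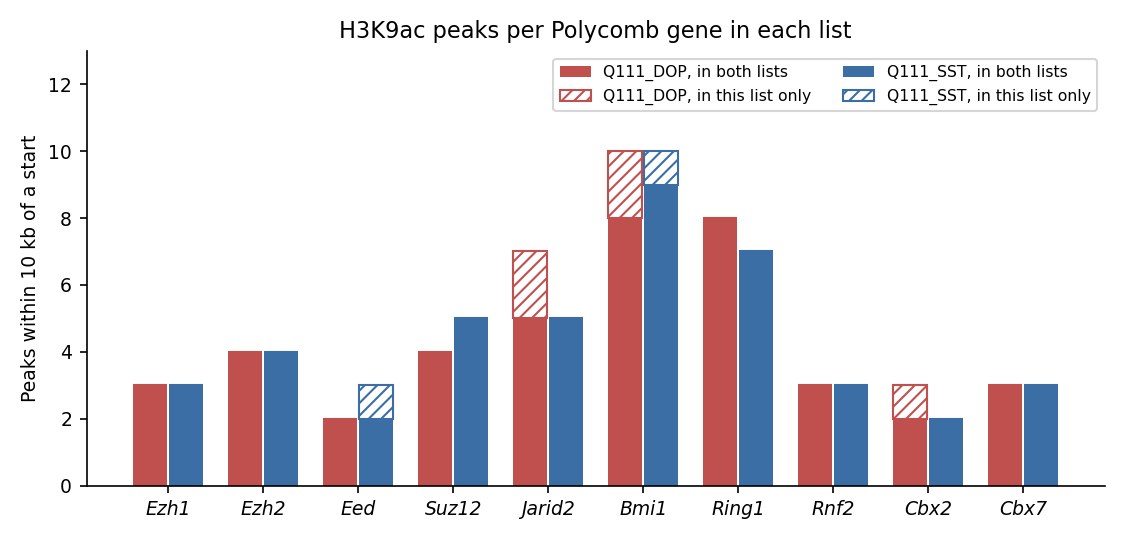
Number of H3K9ac peaks within 10 kb of a start of each Polycomb gene in the Q111_DOP list (red) and the Q111_SST list (blue), with peaks overlapped by a peak of the other list in solid colour and peaks of 1 list only hatched. Jarid2, Ring1 and Cbx2 had more in the DOP list, Eed and Suz12 fewer, and one-list peaks made up at most 2 of a gene's bar.

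Set against each other, the lists differed little in number at these genes. Jarid2, Ring1 and Cbx2 had more peaks with DOP, Eed and Suz12 had fewer, and 5 genes had equal numbers. Within the top 50% of each list by score Jarid2, Cbx2 and Suz12 had equal numbers, Ring1 and Cbx7 had 1 more with DOP and Eed 1 fewer. Among the 13272 genes to which either list gave a peak, 32.5% had more with DOP, 28.5% fewer and 39.0% equal numbers, so that 3, 2 and 5 of 10 are near that background. Of the 47 DOP peaks, 5 (10.6%, 95% Clopper-Pearson interval 3.55% to 23.1%) had no overlapping vehicle peak, and the share over all DOP peaks within 10 kb of a start was 16.2%. For the vehicle list the numbers were 2 of 45 (4.44%, interval 0.54% to 15.1%) against 13.3%. The intervals cover counting error only and treat the peaks as independent, although peaks near the same gene lie in clusters. Both hold the share over all peaks. These few one-list peaks depend on how an overlap is defined: with centres within 1 kb counted as shared, 1 was left in the DOP list, the Jarid2 peak at the internal start, and 0 in the vehicle list.

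When peaks within 1 kb of each other were chained into clusters, the genes had 19 clusters with DOP and 18 with vehicle. Jarid2 alone then differed in number, by its extra DOP cluster, and the other 9 genes were equal.

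Percentiles could be set side by side for 41 pairs of peaks, each the nearest to the other in its list. Of these, 27 ranked higher with DOP and 14 lower, with a median difference of 3.09 points (quartiles -2.35 and 5.09). For the 33 pairs nearest to the Polycomb gene's own start, 21 ranked higher and 12 lower, with a median of 2.4 points. Over all 22837 pairs near genes the median difference was 1.3 points and 58.3% ranked higher with DOP, so a shift in that direction was present across the lists, which differ in length. Among the Polycomb pairs 6 were higher with DOP by at least 10 points, against 17.4% of all pairs, and 5 were lower by at least 10 points, against 11.1%. The 6 higher pairs were at Ezh1, Suz12, Jarid2, Cbx7, Bmi1 and Commd3, and the 5 lower at Ezh1, Ring1, Rnf2 and, with 2, Bmi1. Ezh1 and Bmi1 were thus on both sides.

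**Figure D3:**
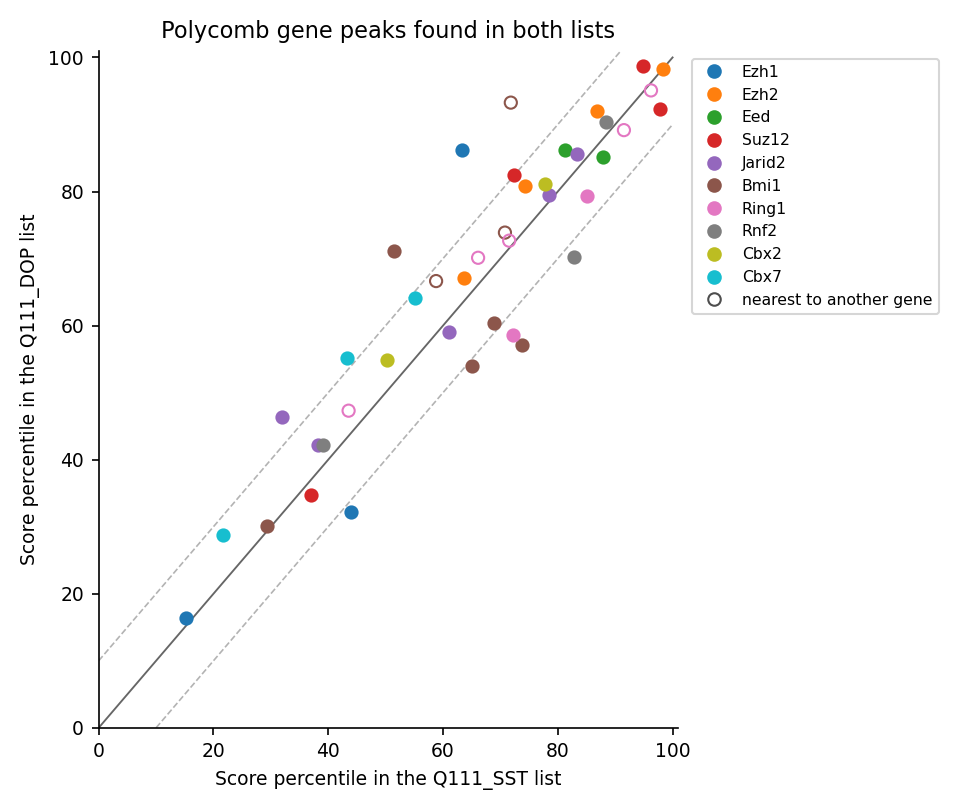
Score percentile in the Q111_DOP list (vertical) against that in the Q111_SST list (horizontal) for the 41 paired peaks, coloured by gene, with open circles for pairs nearest to another gene's start. The solid line marks equal percentiles and the dashed lines a difference of 10 points, and 11 pairs lie on or outside the dashed lines.

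**Figure D4:**
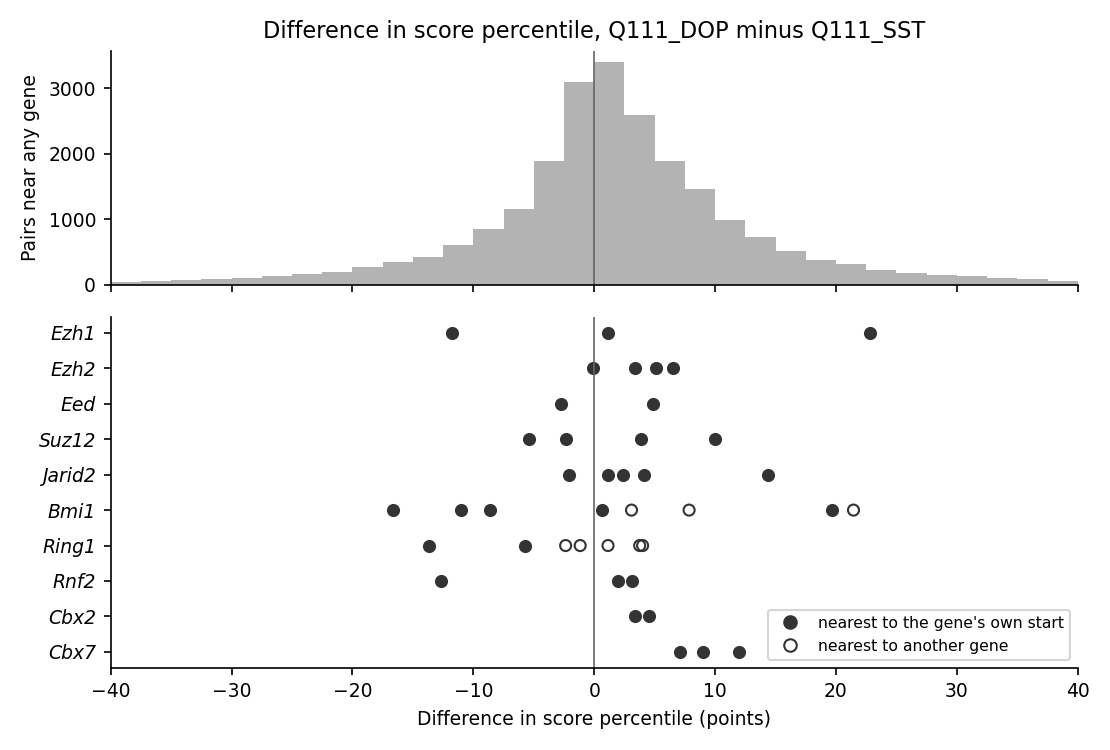
Difference in score percentile, DOP minus vehicle. The upper panel gives pairs per bin of 2.5 points for the 22837 paired peaks near genes. The lower panel gives each pair of the Polycomb genes, with open circles where another gene's start was nearer. Both panels are drawn from -40 to 40 points, and pairs of the upper panel beyond that range are not shown. The Cbx2 and Cbx7 pairs all lie to the right of 0, and each of the other genes has pairs on both sides.

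Neither complex ranked higher or lower throughout. Among the PRC2 genes, the top peak in each list ranked higher with DOP at Ezh1, Suz12 and Jarid2 and lower at Ezh2 and Eed. Among the PRC1 genes, counting peaks nearest to the gene's own start, it ranked higher at Rnf2, Cbx2 and Cbx7 and lower at Bmi1 and Ring1. Apart from Ezh1, where the difference was 22.8 points, and Cbx7, where it was 9.03, these top peaks differed by less than 6 points. How far such differences would recur between replicates cannot be judged from 1 list per condition.

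The centres of a pair, which the pairing keeps near each other, lay a median of 23 bp apart (30 bp over all pairs), at most 135 bp, and 32 of the 41 lay within 50 bp. The highest own peak lay downstream of its nearest start in 8 of 10 genes in each list. It did so in 83.5% of the 11703 genes with an own peak in the DOP list. In the vehicle list the share was 84.0% of 11490. Of the DOP peaks 25 were centred in introns, 7 in coding exons, 6 in UTRs and 9 outside protein-coding genes, and in the vehicle list the numbers were 23, 6, 7 and 9. No peak lay inside a Polycomb gene beyond 10 kb of all its starts, even in Jarid2 and Ezh2, the longest of them.

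The peaks near Polycomb genes were rich in CpG. Their median GC content was 66.5% with DOP and 68.0% with vehicle, beside 60.5% and 61.0% over all peaks near genes. The median ratio of observed to expected CpG, which is 1 where CpG is as frequent as the C and G content gives, was 0.82 and 0.85 beside 0.67 and 0.68. The 42 shared DOP peaks had a median ratio of 0.85, and the 5 DOP-only peaks 0.27, with a range from 0.17 to 0.34. Over all peaks near genes the corresponding medians were 0.71 and 0.43, so one-list peaks had the lower ratio across all genes too. Of the 2 vehicle-only peaks, the one in Bmi1 (0.55) was below the median of 0.85 of the 43 shared vehicle peaks. The one in Eed (0.92) was above it. Over all vehicle peaks near genes the medians were 0.71 for shared and 0.44 for one-list peaks.

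**Figure D5:**
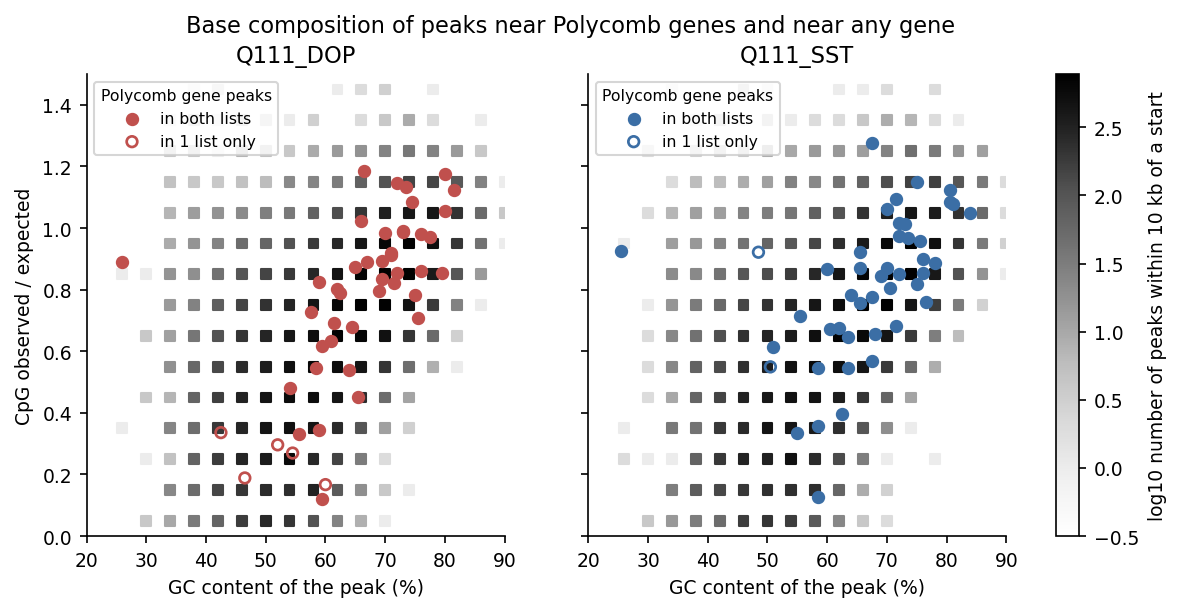
Ratio of observed to expected CpG against GC content (%) for the peaks near Polycomb genes in each list (circles, open where found in 1 list only), drawn over all peaks within 10 kb of a start (grey squares, darker for more peaks). The 5 open circles of the DOP list lie at or below a ratio of 0.34, and the single points near 26% GC are the AT-rich Suz12 pair.

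The starts themselves showed the same composition. Windows ran from 250 bases before to 50 after the start of each protein-coding transcript, leaving out the genes' other annotated starts. The 32 windows of the Polycomb genes had a median GC content of 63.0% and a CpG ratio of 0.78. Over 46015 windows of all genes these were 56.3% and 0.55. Every Polycomb gene had a peak within 1 kb of a start, whereas the windows of all genes include those of genes without one. GGGCGG, the core of the Sp1 site, was present on either strand in 15 of the 32 windows (44.3% of all windows). These windows belonged to 8 of the genes, with Ezh1 and Eed the exceptions. CCAAT, the NF-Y box, was present in 20 windows (35.7% of all windows), which belonged to 7 genes. A gene with several windows has more chances of a match, and no share of genes was computed. TTTCCCGC, an E2F site, was present in Suz12 alone, at -219 bases from a start (1.42% of all windows). TGACGTCA (CREB), GCATGCGC (part of the NRF1 site) and CCGGAAGT (ETS) were in none of the 32 windows, and in 2.13%, 3.24% and 4.71% of all. Windows of the same gene overlap and are not independent, and a match describes letters only. No Polycomb gene had another protein-coding gene starting within 1 kb in the opposite direction, an arrangement found for 9.08% of all genes.

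Further genes tied to the 2 complexes were counted in the same way. Of 32 other genes for subunits, accessory factors and opposing enzymes, 31 had a peak in each list, against 57.7% and 56.9% of all protein-coding genes. The exception was Scml2, which had none in either. The 32 genes had 135 peaks with DOP and 134 with vehicle. Of them, 11 had more peaks with DOP, 9 fewer and 12 equal numbers, beside 32.5%, 28.5% and 39.0% of all genes with a peak. The 7 PRC2 partners had 33 peaks with DOP and 24 with vehicle, with 5 genes higher, none lower and 2 equal, and 7 of the DOP peaks and none of the vehicle peaks were in 1 list only. In the 20 PRC1 partners the counts were 74 and 86, with 3 genes higher, 8 lower and 9 equal, and one-list peaks numbered 6 with DOP and 13 with vehicle. The shares of one-list peaks over all genes were 16.2% and 13.3%, and these small groups were read no further. The 5 genes for the H2A deubiquitinase and the H3K27 demethylases had 28 and 24. The most peaks in the DOP list were at Kdm6b, an H3K27 demethylase, which had 12 with DOP and 9 with vehicle, none of them within 1 kb of a start. The most in the vehicle list were at Kdm2b, which brings a PRC1 form to CpG islands and had 11 in each list. The groups were chosen with earlier results of these data known, and the difference between PRC2 and PRC1 partners was not tested.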

How the data were processed

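H3K9ac chromatin immunoprecipitation and sequencing of STHdh Q111 cells was deposited as 1 peak list for Q111_DOP and 1 for Q111_SST. The authors aligned single-end reads to mm9, with Bowtie 2 in the published methods and BWA 0.7.10 in the submitters' processing notes, and called peaks with GPS (the track lines name GEM). How the 2 samples per condition and the IgG control entered the calls, and the threshold, are not given in the sources used here. The deposited score column has no stated definition and was ranked within its list, so the lists' different lengths and any difference in depth can move a percentile. Peaks were assigned to every gene with a GENCODE vM1 start within 10 kb of the centre, and sharing meant an overlap of at least 1 bp. Pairs were mutual nearest centres. Functions were tested on simulated peaks. Python 3.11.15, pandas 2.3.3, scipy 1.17.1 and pysam 0.24.0 were used. Members, gene lists and motifs were chosen with earlier results of these data known. All 10 genes were named, with each gene's highest peak per list, every one-list peak and any pair over 20 points apart. Of the further genes, those with no peak, with a peak in 1 list only or with the most peaks were named. Map2 was not matched by symbol. The sequence and position of 1 peak are not reported here. Alternatives changed the window, sharing rule, score limits, annotation and clustering.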

Additional observations from a re-analysis of the deposited data

How the results depend on the processing

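All 10 Polycomb genes had a peak in both lists under every alternative run. Most counts were within 1.5 times the reported ones with windows of 1 kb or 5 kb, the top 50% of each list, scores of at least 100, the nearest gene only and protein-coding transcripts only. Chaining peaks within 1 kb gave 19 clusters for the 47 DOP peaks and 18 for the 45 vehicle peaks, with 1 gene higher in number with DOP in place of 3, 0 lower in place of 2 and 9 equal in place of 5. Peaks in the DOP list only, 5 as reported, were 10 with a reciprocal overlap of at least 50%, 2 with centres within 500 bp, 1 with centres within 1 kb, 2 in the top 50% and 1 after chaining. Peaks in the vehicle list only, 2 as reported, were 6, 0, 0, 1 and 0 under the same settings. In the top 50% 1 gene, Eed, had fewer peaks with DOP, and the genes with more were Ring1 and Cbx7 in place of Jarid2, Ring1 and Cbx2. The median difference in percentile was 3.38 with a reciprocal overlap of at least 50% and 3.84 with scores of at least 100. No paired analysis was possible because each condition has 1 peak list and no result comes from a test. Read depth is unknown and limits every count.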

Other observations

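Of 10 genes that Polycomb complexes are known from textbooks to silence, 5 had a peak within 10 kb in the DOP list and 6 in the vehicle list, near the 57.7% and 56.9% of all protein-coding genes. The developmental regulators Sox17, Foxa2 and Pax6 had none in either list. Wnt1, a signalling ligand of the developing midbrain, had 2 peaks with DOP and 0 with vehicle, the higher at the 20.2 percentile. Evx1 and Nkx2-2, both homeobox genes, had 1 peak each with vehicle and 0 with DOP, at percentiles of 2.5 and 5.25. All 4 peaks at these one-list genes were in the lower ranks of their list. The most peaks of the targets were at Cdkn2a, the cell cycle inhibitor locus that Bmi1 holds down in stem cells, with 9 with DOP and 8 with vehicle, and its highest peaks stood at 97.5 and 98.0. No explanation for these values was tested.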
